A study of Mus musculus with 24 samples.

Results

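The genes described here encode the basic leucine zipper factors of the AP-1 group that carry the Fos, Jun, Batf and Atf3 names: Fos, Fosb, Fosl1, Fosl2, Jun, Junb, Jund, Batf, Batf3 and Atf3. They are 10 of the 21951 protein-coding genes in the GENCODE annotation of the mouse mm10 genome. They were chosen by name, and their data are the ATAC-seq peaks whose nearest protein-coding start site, within 100 kb, belonged to one of them. In the 22 libraries used, these peaks fell into 82 of 45013 regions, a region being the span of overlapping peaks from all libraries.

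Chromatin accessibility was measured in bone marrow-derived macrophages, cells that had been cultured for 7 days after isolation from marrow. The donors were male mice of postnatal day 28. The mice were BTBR (BTBR T+ Itpr3tf/J), an inbred strain used as a model of autism-like behaviour, or C57BL6/J, a common laboratory strain. Cultures were given media alone, lipopolysaccharide (LPS, a bacterial cell wall component) once for 24 hours (LPSx1), or LPS for 4 hours, a wash, about 20 hours of rest and LPS again for 24 hours (LPSx2). Each LPS dose was 100 ng/ml. Media and LPSx1 cultures got media in place of the first dose and the same washes and rest. The 24 libraries came from 8 biological replicates, 4 BTBR and 4 C57BL6/J, which are taken here as animals and numbered 1 to 8 as labelled. Each animal gave 1 library per treatment.

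AP-1 is a dimer. Jun proteins pair with each other, with Fos proteins or with Batf and Atf3, and the dimer binds the palindrome TGANTCA. Fos, Fosb, Jun and Junb are immediate early genes, induced within minutes of a stimulus. In that induction MAP kinases act on ternary complex factors, which partner serum response factor, and on Jun itself. Jund, by contrast, is transcribed in most resting cells. In macrophages AP-1 sits with the lineage factor PU.1 at enhancers and takes part in the inflammatory response to LPS. Batf and Batf3 lack a transactivation domain and bind with interferon regulatory factors, and Atf3 is known in mice as an LPS-induced repressor of cytokine genes.

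The authors deposited 1 peak list per library, with no read counts, so depth is known only through list length. The 2 lists of C57BL6/J animal 6 for media and LPSx2 held 299 and 1879 peaks and were left out, which left 7 media, 8 LPSx1 and 7 LPSx2 libraries. The lists kept held 11349 to 127242 peaks after overlapping peaks were collapsed. The 3 libraries of BTBR animal 2 had the longest lists in media (63125 peaks), LPSx1 (112429) and LPSx2 (127242). All lists of a sequencing lane were therefore limited to the length of the shortest, between 11349 and 22037 peaks, keeping the highest scores. The libraries kept had 6 to 8 additional PCR cycles in lanes 1 and 2 and 10 to 13 in lanes 3 and 4. Lane and amplification therefore cannot be told apart where results are split by these lanes below. In 7 lists (every treatment of animal 1, and media and LPSx2 of animals 3 and 4) most peaks were present in duplicate before collapsing. The share of an equal-length list that lay within 1 kb of a start site had a median of 53.3% in media, 42.7% in LPSx1 and 41.9% in LPSx2. Of 11 macrophage marker genes, 9 had a promoter peak in most libraries. Summed over the list, they had 10 to 42 peaks in a media library, 9 to 48 in LPSx1 and 10 to 57 in LPSx2. The markers of other cells that the cultures could hold, in lists of 4 to 6 genes each, had fewer peaks when summed. Sums over lists of unequal size do not compare peaks per gene. In sum, T and NK cell markers had at most 3 in a library, B cell markers 1 and neutrophil markers 3. Stromal markers had at most 3, erythroid markers 1 and dendritic cell markers 7. No peak in any library was found for 3 of 6 T and NK cell, 4 of 5 B cell and 3 of 5 neutrophil markers. The same held for 4 of 5 stromal, 3 of 4 erythroid and 0 of 4 dendritic cell markers. Cd3e, Cd3g, Pax5, Ly6g, Col1a1 and Gata1 were among those without a peak. Of the neutrophil markers, 1 had a promoter peak in most libraries.

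Both promoters and peak windows carry the findings below and are printed for that reason. The first are promoter stretches of Jund, Fos and Jun, each of which overlaps a region that fell in LPSx1. Capitals mark a cyclic AMP response element (TGACGTCA) and a C/EBP-type site (TTGCNNAA on the other strand) at Jund, a CArG box at Fos and the AP-1 variant TGACATCA at Jun.
Jund promoter, chr8:70698699-70698948, plus strand: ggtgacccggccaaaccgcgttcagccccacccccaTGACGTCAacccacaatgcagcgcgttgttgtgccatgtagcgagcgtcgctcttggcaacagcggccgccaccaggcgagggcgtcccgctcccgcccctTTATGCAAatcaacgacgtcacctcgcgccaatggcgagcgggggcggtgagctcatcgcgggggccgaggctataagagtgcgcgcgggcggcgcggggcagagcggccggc
Fos promoter, chr12:85473560-85473859, plus strand: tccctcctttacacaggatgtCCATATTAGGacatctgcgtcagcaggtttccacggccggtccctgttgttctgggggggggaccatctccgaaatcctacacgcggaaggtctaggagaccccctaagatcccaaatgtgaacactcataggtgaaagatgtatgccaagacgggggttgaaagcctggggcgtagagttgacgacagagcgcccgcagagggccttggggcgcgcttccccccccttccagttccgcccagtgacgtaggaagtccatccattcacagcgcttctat
Jun promoter, chr4:95052223-95052472, minus strand: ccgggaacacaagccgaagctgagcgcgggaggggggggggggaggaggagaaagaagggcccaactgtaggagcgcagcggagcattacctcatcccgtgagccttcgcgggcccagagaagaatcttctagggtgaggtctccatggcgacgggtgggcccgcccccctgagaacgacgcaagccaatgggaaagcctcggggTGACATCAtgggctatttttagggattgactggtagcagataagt
The second are peak windows that ranked lower with LPS (both Fos regions) or ranked higher with it (Batf, Atf3 and Jun). Capitals mark TGACATCA on the other strand in the Fos upstream region, a CArG box and a GC box (GGGGCGGGG on the other strand) in the Fos downstream region, a PU.1 site (GAGGAAGT on the other strand) in the Batf intron and a C/EBP-type site, again on the other strand, in the Atf3 region, while the Jun region held none of the motifs searched.
Fos upstream region, chr12:85472127-85472327, plus strand: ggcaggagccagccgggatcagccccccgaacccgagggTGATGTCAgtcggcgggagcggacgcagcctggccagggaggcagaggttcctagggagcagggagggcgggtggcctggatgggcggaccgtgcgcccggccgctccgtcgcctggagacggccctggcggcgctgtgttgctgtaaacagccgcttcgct
Fos downstream region, chr12:85486009-85486209, plus strand: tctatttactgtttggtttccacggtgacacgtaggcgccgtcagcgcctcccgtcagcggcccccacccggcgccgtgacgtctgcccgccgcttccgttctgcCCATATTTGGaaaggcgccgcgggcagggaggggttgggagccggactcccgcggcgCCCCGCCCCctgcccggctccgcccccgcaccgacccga
Batf intron region, chr12:85705322-85705522, plus strand: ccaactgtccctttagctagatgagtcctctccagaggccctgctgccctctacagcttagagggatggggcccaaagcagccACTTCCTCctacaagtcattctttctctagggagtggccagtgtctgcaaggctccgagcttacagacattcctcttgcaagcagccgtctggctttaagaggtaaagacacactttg
Atf3 upstream region, chr1:191254503-191254703, plus strand: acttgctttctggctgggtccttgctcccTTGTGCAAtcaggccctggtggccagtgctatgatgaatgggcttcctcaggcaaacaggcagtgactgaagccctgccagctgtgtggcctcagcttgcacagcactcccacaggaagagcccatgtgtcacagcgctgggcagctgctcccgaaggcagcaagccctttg
Jun far upstream region, chr4:95148782-95148982, plus strand: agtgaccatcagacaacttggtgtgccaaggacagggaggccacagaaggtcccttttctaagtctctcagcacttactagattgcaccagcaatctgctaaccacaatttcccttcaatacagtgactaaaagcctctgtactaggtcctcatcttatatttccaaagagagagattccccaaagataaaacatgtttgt

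The number of peaks per gene was compared first. In the equal-length lists Jund lost peaks with LPS, and it was the 1 member of the 9 that could be tested to do so. It averaged 2.29 ± 0.951 peaks in media (SD, n = 7), 0.75 ± 1.04 in LPSx1 (n = 8) and 0.571 ± 0.535 in LPSx2 (n = 7). Over all 9146 genes tested, 2.55% lost peaks in LPSx1 and 3.3% in LPSx2, and 3.4% and 3.75% gained them (limma, Benjamini-Hochberg adjusted p under 0.05 over all genes tested). The members' median difference was -0.625 peaks for LPSx1 and -0.917 for LPSx2, against 0 over all genes in both. Peak numbers in lists cut to equal length are relative to the other peaks, and a peak ranked below the cut was not counted. Its part in the Jund difference was not tested. In the full, uncut lists Jund averaged 3.57 peaks in media, 2.25 in LPSx1 and 2.29 in LPSx2. In bulk libraries, fewer cells with an open site and a less open site in each cell cannot be told apart either. No member gained peaks by the limma test, and Fosl1 had no peak in any equal-length list.

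**Figure D1:**
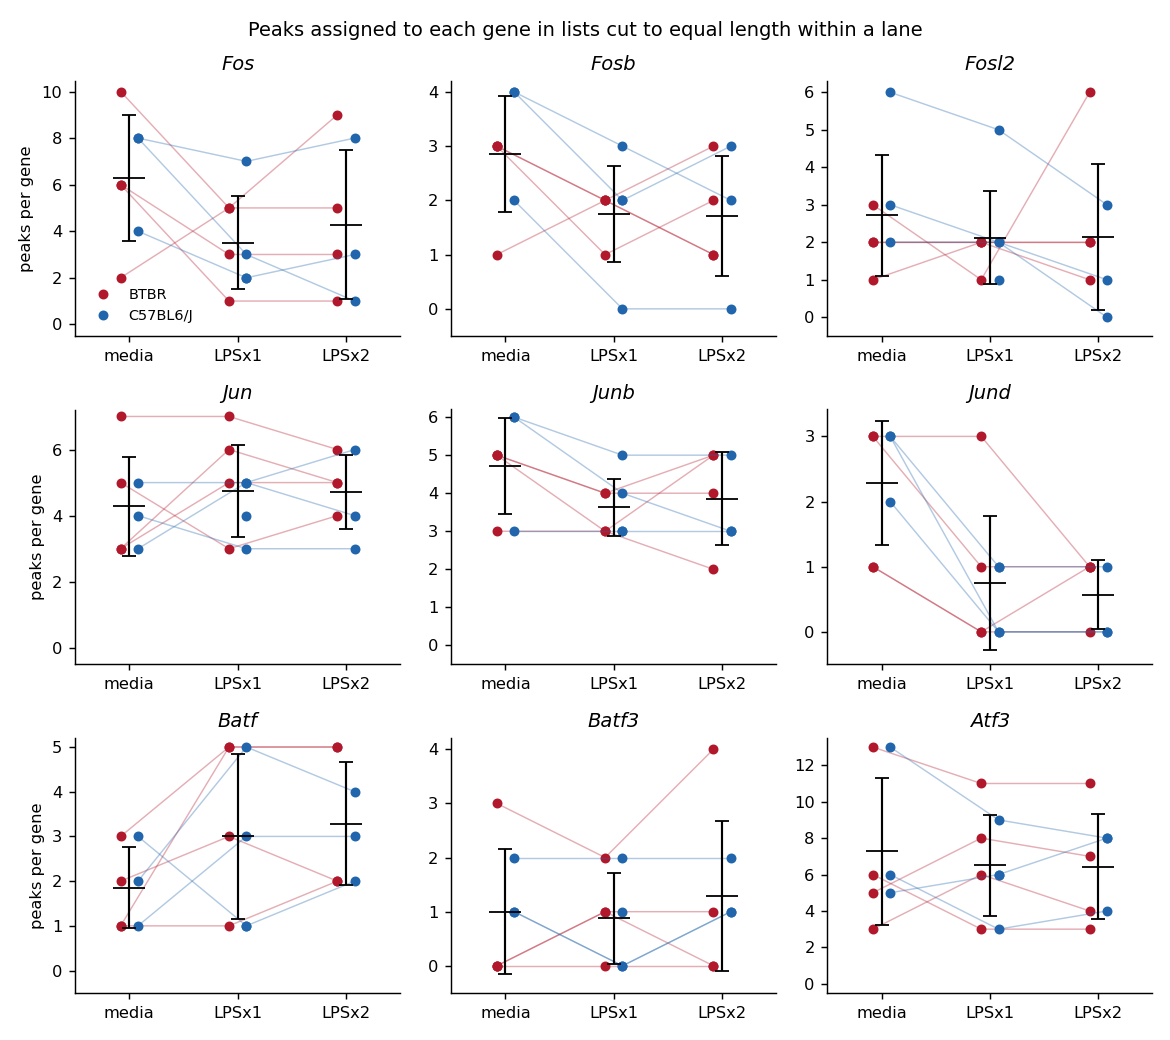
Peaks per gene (vertical axis, number) in each of the 22 libraries by treatment, for the 9 members with peaks. Points are libraries (red BTBR, blue C57BL6/J), lines join libraries of 1 animal, and black bars give the mean and SD. Jund lies at 1 to 3 peaks in media and at 0 or 1 in 14 of the 15 LPS libraries.

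Fos, the founding member and the partner of Jun in the classical dimer, had 2 to 10 peaks in media (median 6). It had 1 to 7 with LPSx1 and 1 to 9 with LPSx2 (median 3 in each). The 3 groups overlapped. The number was lower with LPSx1 than with media in 6 of 7 animals and higher in BTBR animal 2, and the differences of -2.69 ± 1.00 (SE; adjusted p = 0.133) and -2.08 ± 1.03 for LPSx2 (adjusted p = 0.229) did not pass. Without animal 2 the LPSx1 difference was -3.64 and passed (adjusted p = 0.0422). Within lanes 1 and 2 the mean difference per animal was -1.25 peaks for LPSx1 and 0.25 for LPSx2, and within lanes 3 and 4 it was -4.33 and -5.

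Fosb, a close relative of Fos, had 1 to 4 peaks in media (median 3) and 0 to 3 in LPSx1 and in LPSx2 (median 2 in each). All treatments overlapped, with Fosb lower in 6 of 7 animals in LPSx1 and in 5 of 7 in LPSx2. The differences of -1.18 ± 0.381 (adjusted p = 0.0841) and -1.21 ± 0.392 (adjusted p = 0.0785) did not pass, and both passed without BTBR animal 2 (-1.51, adjusted p = 0.024 and -1.33, adjusted p = 0.0349). Fosl2, which encodes Fra-2, had 1 to 6 peaks in media, 1 to 5 with LPSx1 and 0 to 6 with LPSx2, with a median of 2 in each. Fosl1, which encodes Fra-1, had peaks only in the full lists of BTBR animal 2, with 1 in media, 3 in LPSx1 and 3 in LPSx2. Those are the longest list of each treatment and come from 1 animal, so list length, animal and strain cannot be told apart.

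Jund, the Jun protein that is present in resting cells, had 0, 0, 1 and 3 peaks with LPSx1 in BTBR animals 2, 3, 5 and 8, against 1, 1, 3 and 3 in media. With LPSx2 it had 0 in BTBR animal 2 and 1 in animals 3, 5 and 8. In C57BL6/J animals 1, 4 and 7 it had 0, 0 and 1 peaks with LPSx1 and the same with LPSx2, against 3, 2 and 3 in media, and animal 6 had 1 with LPSx1. Every LPS library but that of BTBR animal 8 in LPSx1 had 0 or 1 peak, so that library and the media libraries with 1 peak are where the groups overlap. The difference was -1.66 ± 0.318 peaks for LPSx1 (SE; adjusted p = 0.00977) and -1.79 ± 0.327 for LPSx2 (adjusted p = 0.00726), and 6 of 7 animals were lower in each. The mean difference per animal was -1.75 (LPSx1) and -1.5 (LPSx2) within lanes 1 and 2, and -1.33 and -2 within lanes 3 and 4. Without animal 5 the LPSx1 difference was -1.5 (adjusted p = 0.0627), and both calls ended with no lane term (adjusted p = 0.110 and 0.0756) and without the duplicated lists (adjusted p = 0.251 and 0.169). They also ended with lists at their deposited length (adjusted p = 0.692 and 0.832), with no library left out (0.0764 and 0.0578) and with the stronger 50% of each list (0.187 and 0.0924).

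Jun, which can pair with itself or with Fos proteins, kept 3 to 7 peaks in media and LPSx1 and 3 to 6 in LPSx2. Its differences of 0.542 ± 0.51 and 0.417 ± 0.524 did not pass (adjusted p = 0.588 and 0.672). Counting only peaks over 1 kb from a start site, Jun gained 1.26 peaks in LPSx1 and 1.29 in LPSx2 (adjusted p = 0.047 and 0.0466), and over all genes 14.3% and 14.9% gained distal peaks in the same fits. Counting only peaks within 25 kb, the difference was -0.667 and -0.875 (adjusted p = 0.368 and 0.212), and those did not pass. Junb, an immediate early gene with weaker transactivation than Jun, had 3 to 6 peaks in media, 3 to 5 with LPSx1 and 2 to 5 with LPSx2, with differences of -1.14 ± 0.507 and -0.917 ± 0.522 (adjusted p = 0.208 and 0.298).

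Batf had 1 to 3 peaks in media, 1 to 5 with LPSx1 and 2 to 5 with LPSx2, and 5 of 7 animals were higher with each LPS treatment. Its differences of 1.26 ± 0.602 and 1.38 ± 0.619 did not pass (adjusted p = 0.241 and 0.186). Within lanes 1 and 2 the difference averaged 2.75 and 2.5 peaks per animal, against -0.333 and 0 within lanes 3 and 4. Batf3, which the cross-presenting subset of conventional dendritic cells needs in mice, had 0 to 3 peaks in media, 0 to 2 with LPSx1 and 0 to 4 with LPSx2. Atf3, with the most peaks of the members, had 3 to 13 in media (median 6), 3 to 11 with LPSx1 (median 6) and 3 to 11 with LPSx2 (median 7), and its differences of -0.542 ± 0.94 and -0.917 ± 0.967 were within the spread between libraries (adjusted p = 0.809 and 0.597).

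Peak numbers do not show whether a region present in all libraries changed its rank. Each region was therefore also given a rank percentile in each library. It was 100 for the strongest peak of the equal-length list and 0 where the list had none. A percentile is relative to the other peaks of its list, so a fall does not show that the region itself became less open. Of the 82 member regions, 47 had a peak in at least 4 libraries and were tested with the rest, 25488 in all. Regions without a peak in any media library, or in any LPS library, met that number only through the group where they were high. Of the regions called below, this held for those 3.7 kb upstream of Junb, 6.5 kb upstream of Atf3 and 96.6 kb upstream of Jun. The Batf region 18.7 kb downstream was another. Their adjusted p values are therefore not independent of how they were selected. In LPSx1, 14 member regions fell and 1 rose, and over all regions tested 9.7% fell and 8.75% rose. In LPSx2, 11 fell and 3 rose, with 11.5% and 10% over all regions. Of these, 10 fell in both comparisons and 1 rose in both, which share their media libraries. The regions that fell belonged to Fos, Fosb, Fosl2, Jun, Junb, Jund and Atf3, and those that rose to Batf, Jun and Atf3. With lists at their deposited length 1 member region fell in LPSx1 and 4 in LPSx2, and over all regions 0.21% and 0.37% fell. Without the lane term these were 6 and 4, with 2.44% and 2.76% over all regions. Without the duplicated lists they were 5 and 3, with 2.17% and 1.45%. Of the region calls described below, only that of the Jund promoter region in LPSx2 held under every alternative setting and every fit that left out 1 animal. The other 35 member regions had a peak in fewer than 4 libraries, 17 of them in 1.

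**Figure D2:**
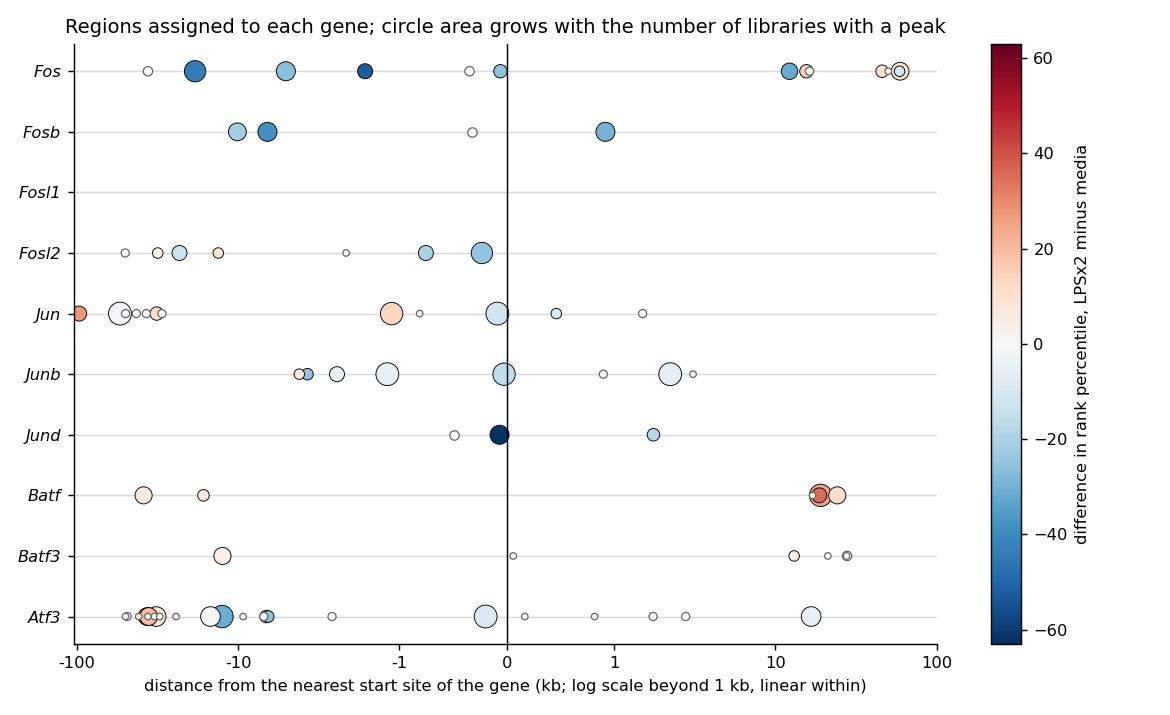
All 82 member regions by distance from the nearest start site of their gene (horizontal axis, kb, log scale beyond 1 kb), with 1 line per gene. Circle area grows with the number of libraries with a peak, colour gives the difference in rank percentile (LPSx2 minus media), and white circles with grey edges were detected in under 4 libraries and not tested. Most regions near the start sites are blue, and the reddest lie at Batf, Atf3 and far upstream of Jun.

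Promoter regions, within 1 kb of a start site, and distal ones were counted apart. Of 9 member promoter regions tested, 5 fell in LPSx1 and 3 in LPSx2, and over all promoter regions 14.7% and 18.9% fell. None of the 9 rose, and 2.54% and 2.69% of all promoter regions did. All 9 differences were below 0 in both comparisons, as were 68.2% and 71.2% of those of all promoter regions. Their median was -20.2 in both, against -6.71 for LPSx1 and -8.39 for LPSx2 over all promoters. The share of promoter peaks in the equal-length lists was also lower with LPS, as given above, and its part in these differences was not tested. Of 38 member distal regions, 9 fell and 1 rose in LPSx1, with 6.38% and 12.9% over all distal regions, and 8 fell and 3 rose in LPSx2, with 6.59% and 14.8%. The median difference of the distal regions was -1.33 and 3.55, against 5.31 and 5.58 over all distal regions.

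**Figure D3:**
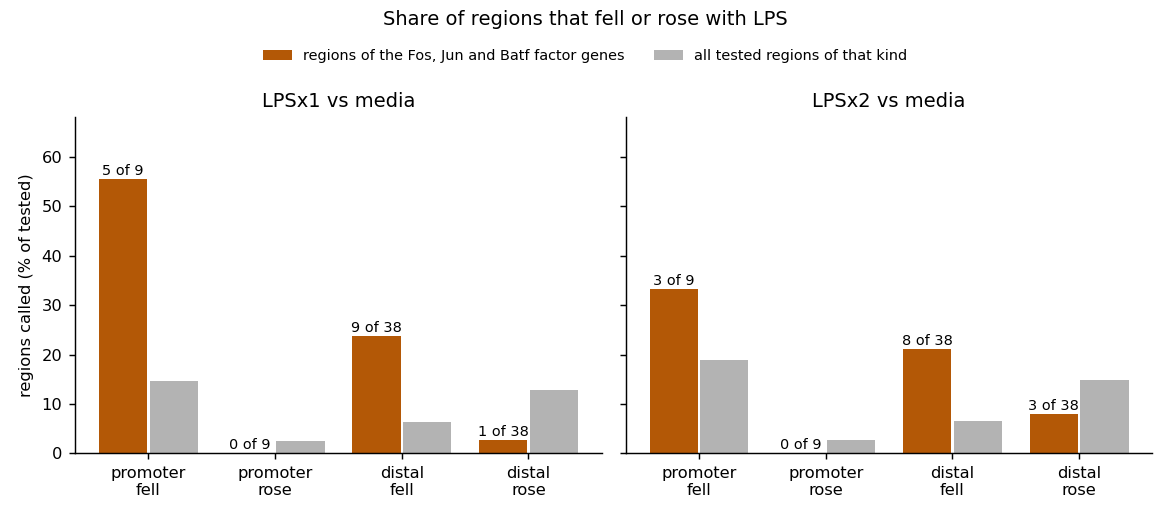
Share of tested regions (vertical axis, %) that fell or rose in LPSx1 (left) and LPSx2 (right), by promoter and distal regions. Orange bars are member regions, with their counts, and grey bars all tested regions of that kind. Member regions fell in 5 of 9 promoters and 9 of 38 distal regions in LPSx1.

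The Jund promoter region (chr8:70698595-70699169, covering the start site, UTR and coding sequence of Jund and an exon of the antisense transcript Gm11175) fell the most of the member regions tested. Its rank percentile was 27.2 to 98.7 in media (median 92.9), 0 to 67.2 with LPSx1 (median 6.61) and 0 to 66.2 with LPSx2 (median 6.64). All 7 media libraries, 4 of 8 LPSx1 and 4 of 7 LPSx2 libraries had a peak there, and the groups overlapped only through the media library of BTBR animal 2. The difference was -60.8 ± 10.5 percentile points in LPSx1 (SE; adjusted p = 0.000108) and -62.2 ± 10.8 in LPSx2 (adjusted p = 0.000117), and 7 of 7 animals were lower in each. The LPSx2 call held under all 17 alternatives (adjusted p at most 0.0412), and the LPSx1 call ended under 1, without the duplicated lists (adjusted p = 0.0964). In the full lists 7 of 7 media, 8 of 8 LPSx1 and 6 of 7 LPSx2 libraries had a peak there. Its stretch printed above holds TGACGTCA, as do 1.96% of 21938 promoters over the same 250 bases, and the C/EBP-type site, as do 9.23%. A region at a UTR of Jund, 1.8 kb downstream of the start, had a peak in 5 of 7 media, 1 of 8 LPSx1 and 0 of 7 LPSx2 libraries and fell by 16.4 ± 5.91 in LPSx1 and fell by 17.5 ± 6.07 percentile points in LPSx2 (adjusted p = 0.0481 and 0.036). Its LPSx1 call ended under 14 of 16 alternatives, among them the animal as a block (adjusted p = 0.084) and leaving out any of animals 1 to 7. Its LPSx2 call ended under 10 of 16, among them leaving out animal 1, 4, 5, 7 or 8. The full lists held it in 7 of 7 media, 4 of 8 LPSx1 and 2 of 7 LPSx2 libraries.

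Regions of Fos fell at 4 places. At its promoter (chr12:85473682-85473980) 5 of 7 media, 1 of 8 LPSx1 and 1 of 7 LPSx2 libraries had a peak. The percentile fell by 25.2 ± 7.11 in LPSx1 and fell by 25.4 ± 7.31 points in LPSx2 (adjusted p = 0.0122 and 0.0131). Both calls ended with lists at their deposited length, with no lane term and without the duplicated lists. The LPSx1 call also ended with peaks not collapsed, and the LPSx2 call without animal 4. In the full lists 6 of 7 media, 4 of 8 LPSx1 and 3 of 7 LPSx2 libraries had a peak there. The Fos promoter stretch holds a CArG box, the site of serum response factor, as do 1.64% of promoters over the same 300 bases. That box lies outside the region that fell, in a neighbouring region that had a peak in 3 libraries and was not tested. The region 1.6 kb upstream had a peak in 6 of 7 media, 2 of 8 LPSx1 and 1 of 7 LPSx2 libraries, at 45.5 to 68.9 in those 6. It fell by 41.7 ± 9.39 in LPSx1 and fell by 52.2 ± 9.65 in LPSx2 (adjusted p = 0.00212 and 0.000253), and BTBR animal 2 was the media library without it. The full lists held it in 7 of 7 media, 3 of 8 LPSx1 and 4 of 7 LPSx2 libraries.

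The Fos region 12.2 kb downstream, which holds another CArG box, had a peak in 6 of 7 media, 2 of 8 LPSx1 and 3 of 7 LPSx2 libraries. It fell by 41.3 ± 9.68 in LPSx1 and fell by 32.1 ± 9.96 in LPSx2 (adjusted p = 0.00306 and 0.0202). Both calls ended with lists at their deposited length, with no lane term and without the duplicated lists. The LPSx2 call also ended with the stronger 50% of each list and without animal 4, 5 or 7. The full lists held the region in 7 of 7 media, 5 of 8 LPSx1 and 5 of 7 LPSx2 libraries. The region 18.5 kb upstream was at 55.3 to 96.5 in media (median 90.6), 0 to 64.8 with LPSx1 (median 59.3) and 0 to 90.3 with LPSx2 (median 56.7). It fell by 38.6 ± 9.97 in LPSx1 and fell by 44.1 ± 10.2 in LPSx2 (adjusted p = 0.00653 and 0.00262). Both calls ended with lists at their deposited length and without the duplicated lists, and the LPSx1 call also with no lane term. Both groups with LPS lay lower on median than media at all 4 regions, and each overlapped it. None of the 9 Fos regions tested rose.

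Fosb regions fell upstream of the gene and inside it. The region 6.6 kb upstream was at 46.0 to 89.8 in media (median 55.9), 0 to 50.4 with LPSx1 (median 3.55) and 0 to 79.9 with LPSx2 (median 0). It fell by 48.8 ± 9.93 in LPSx1 and fell by 38.0 ± 10.2 in LPSx2 (adjusted p = 0.00077 and 0.00814), in 7 of 7 and 6 of 7 animals. Both calls ended with the stronger 50% of each list, and the LPSx1 call also with lists at their deposited length. The LPSx2 call also ended with no lane term, without the duplicated lists and without animal 1. The region 10.1 kb upstream, in the lincRNA D830036C21Rik, fell by 39.6 ± 9.75 in LPSx1 (adjusted p = 0.00458), and in LPSx2 its difference was -21.8 ± 10.0 (adjusted p = 0.113). The region 0.9 kb downstream, inside the gene, fell by 29.6 ± 9.47 in LPSx2 (adjusted p = 0.0242), a call that ended without animal 1, 3, 4, 5 or 7, and differed by -23.7 ± 9.22 in LPSx1 (adjusted p = 0.0659). Thus 2 of 3 Fosb regions tested fell in each comparison.

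The Jun promoter region (chr4:95051999-95052619) had a peak in all 22 libraries, at 84.0 to 97.7 in media (median 93.9), 55.0 to 84.9 with LPSx1 (median 77.3) and 58.5 to 90.8 with LPSx2 (median 84.8). The media values overlapped those of both LPS groups. It fell by 19.4 ± 5.22 in LPSx1 (adjusted p = 0.0087), and in LPSx2 its difference was -12.7 ± 5.36 (adjusted p = 0.0834). The LPSx1 call ended with lists at their deposited length, with no lane term and without the duplicated lists. The promoter stretch holds TGACATCA, through which Jun is known to act on its own gene, as do 2.89% of promoters over the same 250 bases. Other regions, 1.1 and 53.9 kb upstream, had peaks in 21 and 22 libraries and did not pass.

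The region 96.6 kb upstream of Jun, in an intron of the antisense transcript Junos, had a peak in 0 of 7 media, 5 of 8 LPSx1 and 4 of 7 LPSx2 libraries. The difference was 23.4 ± 8.63 in LPSx1 (adjusted p = 0.0536), which did not pass, and the region rose by 27.8 ± 8.87 in LPSx2 (adjusted p = 0.0237). The LPSx2 rise averaged 47.1 points per animal within lanes 1 and 2, against 0 within lanes 3 and 4, and the call ended without animal 1, 2, 3 or 4. That call also ended with no lane term, without the duplicated lists and with peaks not collapsed. In the full lists 1 of 7 media, 7 of 8 LPSx1 and 5 of 7 LPSx2 libraries had a peak there. It is the member region nearest the 100 kb limit. The next region, 105.6 kb from Jun and so not a member, had a peak in 6 libraries.

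The Junb promoter region and those 1.2 kb upstream and 2.2 kb downstream had peaks in 21, 22 and 22 libraries and did not pass in any LPS comparison. The region 3.7 kb upstream had a peak in 5 of 7 media, 0 of 8 LPSx1 and 0 of 7 LPSx2 libraries, at 2.24 to 63.1 in those 5. It fell by 26.3 ± 6.98 in LPSx1 and fell by 25.5 ± 7.17 in LPSx2 (adjusted p = 0.00797 and 0.0114), and both calls ended without animal 4 (adjusted p = 0.0546 and 0.0871). In the full lists 6 of 7 media, 1 of 8 LPSx1 and 0 of 7 LPSx2 libraries had it. The promoter of Fosl2 fell by 39.8 ± 11.9 in LPSx1 (adjusted p = 0.018) and differed by -25.0 ± 12.3 in LPSx2 (adjusted p = 0.137), the first call ending without animal 1, 3 or 5.

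**Figure D4:**
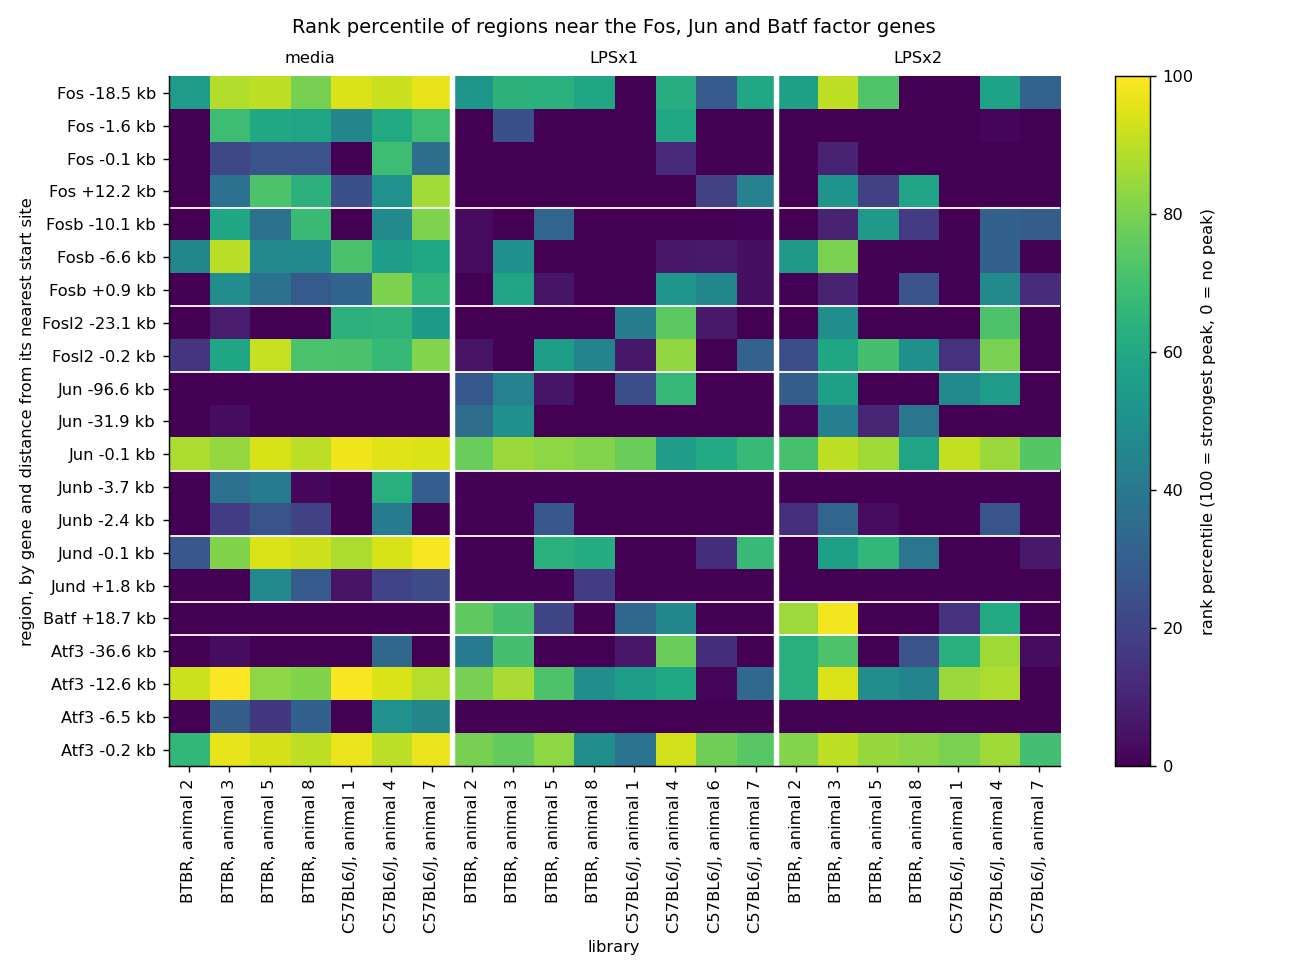
Rank percentile (colour, 100 for the strongest peak and 0 for no peak) of the 21 member regions described in the text (rows, by gene and distance from the start site) in the 22 libraries (columns, by treatment and strain). The Junb region 3.7 kb upstream is dark in all 15 LPS libraries, and the Batf region 18.7 kb downstream is dark in all 7 media libraries.

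Batf had no promoter region, and its 5 regions tested were all distal. The intronic region 18.7 kb downstream of the start (chr12:85705192-85705522) had peaks in the equal-length lists of LPS libraries alone. Its percentile was 75.5 and 85.3 in LPSx1 and LPSx2 of BTBR animal 2, 70.4 and 98.1 in BTBR animal 3, and 20.8 and 0 in BTBR animal 5. In C57BL6/J it was 33.7 and 14.8 in animal 1 and 46.4 and 60.7 in animal 4. It was 0 in all 7 media libraries and in every library of animals 6, 7 and 8. The region rose by 34.5 ± 10.6 in LPSx1 (adjusted p = 0.0215) and 35.5 ± 10.9 in LPSx2 (adjusted p = 0.0195). In lanes 1 and 2 the rise averaged 56.5 and 64.7 points per animal, and in lanes 3 and 4 it averaged 6.92 and 0. Both calls ended when animal 2, 3 or 4 was left out, and the LPSx1 call also without animal 1. In the full lists 1 of 7 media, 6 of 8 LPSx1 and 5 of 7 LPSx2 libraries had a peak there. Beside it, another intronic region had a peak in 21 libraries and did not pass.

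Regions of Atf3 both fell and rose in rank. Its promoter peak, at the internal start site, was in all 22 libraries and fell by 20.2 ± 6.05 in LPSx1 (adjusted p = 0.0182), a call that ended without animal 1, 3 or 8, with a difference of -8.97 ± 6.22 in LPSx2 (adjusted p = 0.302). The region 12.6 kb upstream of the outer start site was at 81.1 to 99.5 in media (median 92.3), 1.82 to 87.2 with LPSx1 (median 57.8) and 0 to 94.7 with LPSx2 (median 62.5). It fell by 34.1 ± 8.10 in LPSx1 and fell by 31.2 ± 8.32 in LPSx2 (adjusted p = 0.00339 and 0.00768), in 7 of 7 animals each time, and the LPSx2 call ended without animal 7. The region 6.5 kb upstream, in the lincRNA D730003I15Rik, had a peak in 5 of 7 media, 0 of 8 LPSx1 and 0 of 7 LPSx2 libraries and fell by 25.4 ± 6.46 in LPSx1 and fell by 25.5 ± 6.64 in LPSx2 (adjusted p = 0.00583 and 0.00641). A peak was there in the full lists of 6 of 7 media, 4 of 8 LPSx1 and 2 of 7 LPSx2 libraries.

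The Atf3 region 36.6 kb upstream moved the other way. It had a peak in 2 of 7 media, 5 of 8 LPSx1 and 6 of 7 LPSx2 libraries, rose by 39.5 ± 10.3 in LPSx2 (adjusted p = 0.00641) and differed by 23.5 ± 9.98 in LPSx1 (adjusted p = 0.0927). The full lists held it in 3 of 7 media, 6 of 8 LPSx1 and 6 of 7 LPSx2 libraries. No animal was lower with either treatment, and in lanes 1 and 2 the LPSx2 rise averaged 61.8 points against 9.68 in lanes 3 and 4. The LPSx2 call ended with no lane term and without the duplicated lists. Batf3 had 2 regions tested, and neither passed.

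**Figure D5:**
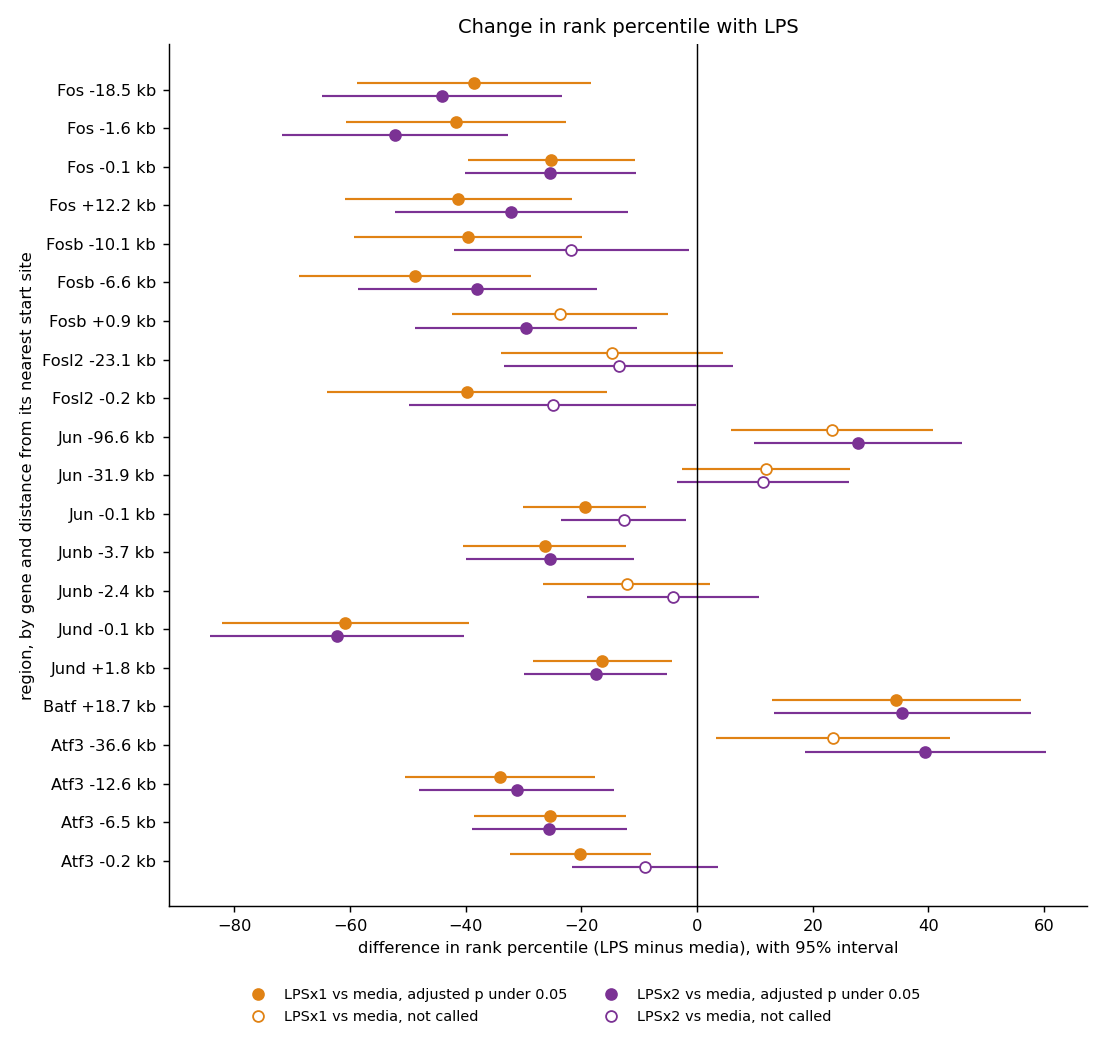
Difference in rank percentile (horizontal axis, percentile points, LPS minus media) of the 21 named regions with 95% intervals, orange for LPSx1 and purple for LPSx2. Filled circles passed at an adjusted p under 0.05. Differences lie left of 0 except at Batf, the Atf3 region 36.6 kb upstream and 2 Jun regions upstream.

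LPSx2 and LPSx1 were compared directly, which bears on whether pretreatment left a mark at these genes. No member and no member region passed, nor did any of the 9146 genes or 25488 regions (0% in limma). At an unadjusted p under 0.05 there were 0 members and 1 member region, against 4.55% of all genes and 5.36% of all regions. The Jund difference was -0.135 peaks with a 95% interval of -0.819 to 0.548, and the Fos difference was 0.604 with an interval of -1.55 to 2.76. The 1 region under that unadjusted level lay 12.5 kb upstream of Batf3 and differed by 19.9 ± 8.58 points (adjusted p = 0.907).

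Between strains, no member differed in peak number, and over all genes 0.776% were higher and 1.16% lower in BTBR. Jun came nearest, with 4.92 ± 1.44 peaks in BTBR (SD, n = 12 libraries of 4 animals) and 4.2 ± 1.03 in C57BL6/J (n = 10 libraries), a difference of 0.778 ± 0.393 (SE; adjusted p = 0.383) that was positive in all 4 lanes. For Jund the difference was -0.0125 ± 0.250 peaks. Of the 47 member regions, 1 was lower in BTBR and 0 higher, with 2.83% and 1.66% over all regions. It lay 23.1 kb upstream of Fosl2 (chr5:32112573-32112897) and had a peak in 2 of 12 BTBR and 7 of 10 C57BL6/J libraries. Its percentile was 0 to 49.1 in BTBR (median 0) and 0 to 74.9 in C57BL6/J (median 48.2), and the region was lower in BTBR by a difference of -32.0 ± 7.66 (adjusted p = 0.00865), a call that ended without animal 2, 3 or 4. In the full lists 6 of 12 BTBR and 9 of 10 C57BL6/J libraries had a peak there. BTBR animal 3, in lane 2, gave both BTBR values above 0. The region 31.9 kb upstream of Jun had a peak in 7 of 12 BTBR and 0 of 10 C57BL6/J equal-length lists, but in 9 of 12 and 4 of 10 full ones, and did not pass. That 2.4 kb upstream of Junb had a peak in 7 of 12 BTBR and 2 of 10 C57BL6/J equal-length lists. In the full lists these were 10 of 12 and 8 of 10, and the region did not pass in any comparison.

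The response to LPS was not shown to differ between strains for any member or member region. Over all genes, 3 passed the test of the strain difference in the LPSx1 response (0.0328%) and 1 in the LPSx2 response (0.0109%), and over all regions 0.00392% and 0.0157% passed. For Jund the strain difference was 1.31 peaks for LPSx1 (interval -0.0542 to 2.68; adjusted p = 0.884) and 1.08 for LPSx2 (interval -0.322 to 2.49; adjusted p = 0.825). For Fosl2 it was 3.08 peaks in LPSx2 (interval 0.502 to 5.66; adjusted p = 0.738). Each group of strain and treatment held 3 or 4 animals.

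Motif content was counted in the window of the strongest peak of each region, on both strands. The AP-1 palindrome TGANTCA was found in 10 of 82 member windows (12.2%) and in 19.2% of all 45013. In distal windows it was found in 9 of 65 (13.8%) against 25.7%, and in promoter windows in 1 of 17 (5.88%) against 5.07%. The PU.1 sequence GAGGAAGT was in 9 of 82 member windows and 8.72% of all, and the NF-kB motif in 7.32% and 4.42%. The C/EBP-type sequence TTGCNNAA was in 8.54% and 12.5%, and the interferon-stimulated response element in 1.22% and 3%. CArG boxes were in 4 member windows (4.88%) and in 1.08% of all, and TGACATCA was also in 4 (4.88%), with 2.29% of all. TGACGTCA was in 0 member windows and 1.28% of all. The Jund copy lies outside that region's window. The GC box GGGGCGGGG was in 3.66% and 6.56%. Neither TGACGTCA nor TGACATCA contains TGANTCA, and a match says only that the letters are present.

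Other genes of the pathway were counted by list. Over all genes tested, 3.4% rose and 2.55% fell in LPSx1, and 3.75% rose and 3.3% fell in LPSx2. With lists at their deposited length, 0 of 13095 genes passed in either comparison, so every call in these lists ended there. Of 20 other basic leucine zipper genes tested, 0 changed in LPSx1 and 2 rose in LPSx2. Cebpb, a macrophage C/EBP factor, averaged 13.3 ± 6.58 peaks in LPSx2 and 7 ± 2.08 in media (SD, n = 7 each; adjusted p = 0.0421), and Nfil3 averaged 3.71 ± 2.81 in LPSx2 and 1.43 ± 0.976 in media (adjusted p = 0.0454). Of 19 MAP kinases and their activators, 1 rose and 1 fell in each comparison. Map2k6, a kinase that activates p38, averaged 1.57 ± 0.787 peaks in media (n = 7), 4.13 ± 0.641 in LPSx1 (n = 8) and 3.86 ± 1.57 in LPSx2 (n = 7; adjusted p = 0.0032 and 0.00518) and was higher in 7 of 7 animals. Map3k5 (ASK1) averaged 2.71 ± 1.7 in media, 1 ± 0.756 in LPSx1 and 1.14 ± 1.07 in LPSx2 (adjusted p = 0.0252 and 0.0349).

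None of 8 MAP kinase phosphatases passed in either comparison. Dusp1, which ends MAP kinase signalling, averaged 5.14 ± 2.19 peaks in media, 2.88 ± 2.23 in LPSx1 and 3 ± 2.83 in LPSx2 (adjusted p = 0.148 and 0.121). Of 9 serum response and Mef2 factors, 0 changed in LPSx1 and 2 fell in LPSx2 (3.3% of all genes). Elk4, a ternary complex factor, averaged 0.286 ± 0.488 peaks in LPSx2 and 1.57 ± 1.13 in media (adjusted p = 0.0423), and Mef2a averaged 4.14 ± 1.68 in LPSx2 and 6.43 ± 1.72 in media (adjusted p = 0.0372). Of 13 other immediate early genes, 1 fell in LPSx1 (2.55% of all genes) and 2 in LPSx2 (3.3%). Nr4a1, an orphan nuclear receptor, averaged 3.14 ± 1.35 in media, 1.75 ± 0.886 in LPSx1 and 1.71 ± 0.756 in LPSx2 (adjusted p = 0.0142 and 0.016). Zfp36, which encodes the mRNA-destabilising protein tristetraprolin, averaged 3.71 ± 1.25 in LPSx2 and 5.71 ± 1.6 in media (adjusted p = 0.0341). Of 16 known AP-1 targets tested, 1 rose, in LPSx2 (3.75% of all genes). It was Ptgs2, which encodes cyclooxygenase-2, at 3.57 ± 2.15 peaks against 2 ± 0.577 in media (adjusted p = 0.0422). The list medians lay between -0.5 and 0.286 peaks in the LPS comparisons, against 0 over all genes.

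The genes whose peak numbers followed the members most closely were found over the 22 libraries, after lane means were removed and values scaled to unit SD. For the sum over the members they were Nt5c2, Trmt112 and Nfic, with root-mean-square differences of 0.375, 0.561 and 0.577, against a median of 1.38 over all genes. For Jund, Srr and Mfsd11 were among the closest, at 0.499 and 0.53. Srr averaged 0.429 peaks in LPSx2 and 1.29 in media.

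Some members are neighbours. Fos (chr12:85473890-85477273) and Batf (chr12:85686669-85709087) are on the plus strand with only Jdp2, another AP-1 factor gene, as protein-coding gene between them. Batf3 (chr1:191097847-191108945) and Atf3 (chr1:191170296-191218039) are separated by Fam71a alone, and Jund (chr8:70698949-70700616) and Junb (chr8:84974484-84978718) share a chromosome. The regions that fell around Fos and the one that rose at Batf are thus on the same chromosome, and Atf3 had regions of both directions within its own upstream flank.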

How the data were processed

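ATAC-seq peak lists of 24 libraries, from 8 biological replicates taken as animals with 3 treatments each, were analysed. Alignment to mm10, a limit to fragments under 147 bp and peak calling with HOMER in each library are stated in the labels. Picard 2.18.4, SAMtools 1.8, Trimmomatic 0.38 and bedtools are listed in the submitters' processing notes, and the aligner is not given in the sources used here. Each list gives 201 bp peaks with a score of unstated scale, as deposited by the authors, so scores served only to rank peaks within a list. Read depth is unknown, and list length limits what could be detected.

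Overlapping peaks were collapsed to the higher score. Lists under 5000 peaks were left out, and those kept were limited to the length of the shortest of their lane. Peaks were assigned to the nearest protein-coding start site (GENCODE, mm10) within 100 kb. Peak numbers (genes averaging at least 0.5) and rank percentiles (regions in at least 4 libraries) were fitted with limma 3.58.1 (trend and robust) in R 4.3.3, with 6 strain-by-treatment groups and the lane, and Benjamini-Hochberg adjustment over all features at a threshold of 0.05. For strain, duplicateCorrelation (statmod 1.5.0) took the animal into account, with consensus correlations of -0.0635 for genes and -0.0355 for regions. Matrices were made in Python 3.11.15 with numpy 2.4.6 and pandas 2.3.3, and figures with matplotlib 3.10.9. The fits were tested on simulated data.

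Each animal gave 1 library per treatment, so numbers pair the libraries. Deviations from group means correlated between libraries of an animal at 0.196 to 0.797 over 21 pairs (median 0.513). Between other animals of the same lane they correlated at -0.0383 to 0.566 over 30 pairs (median 0.358). Between lanes the median was -0.188 over 180 pairs. The main treatment fits held the lane and not the animal. Named regions were those that passed in any contrast or were detected in at least 5 more libraries of one group. From the other lists, genes that passed and the 2 with the largest differences could be named, and a gene with a pattern like that of Jund is not reported here. Promoter sequences are from RefSeq (mm10), which matched 9 of 10 members, and peak windows from the GRCm38.p6 genome. The members and lists were chosen with earlier results of these data known. Starting from 1 site per gene and another draw of tied scores were alternatives chosen after seeing the data.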

Additional observations from a re-analysis of the deposited data

Results flagged for a closer look

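Of 98 groups of 4 libraries examined, 22 held 1 library far from the other 3 by Dixon's criterion. Chance flags about 1 in 20 groups, and groups that are mostly at 0 are flagged by any single value above it.

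In BTBR media, animal 2 stood low with 1 Fosb peak (3 in the others), 3 Junb peaks (5 in the others), and a rank percentile of 0 at the Fos region 1.6 kb upstream (58.5 to 68.8 in the others) and at the Fos promoter (21.5 to 25.9 in the others). BTBR animal 3 stood high in media with 3 Batf3 peaks (0 in the others) and with percentiles of 3.15 at the Atf3 region 36.6 kb upstream (0), 8.16 at the Fosl2 region 23.1 kb upstream (0) and 89.8 at the Fosb region 6.6 kb upstream (46.0 to 47.5).

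In BTBR LPSx1, animal 8 had 1 Fosb peak and animal 3 had 1 Fosl2 peak, with 2 in each of the others. Animal 3 had percentiles of 24.3 at the Fos region 1.6 kb upstream (0 in the others), 58.2 at the Fosb region 0.9 kb downstream (0 to 5.59) and 50.4 at the Fosb region 6.6 kb upstream (0 to 2.89). Animal 5 had 32.6 at the Fosb region 10.1 kb upstream (0 to 2.89), and animal 8 had 17.3 at the Jund region 1.8 kb downstream (0).

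In BTBR LPSx2, animal 2 had 0 Jund peaks (1 in the others), and animal 3 had percentiles of 10.0 at the Fos promoter and 49.1 at the Fosl2 region 23.1 kb upstream, with 0 in the others. In C57BL6/J LPSx1, animal 4 had 77.6 at the Atf3 region 36.6 kb upstream (0 to 13.2 in the others), and 60.02 at the Fos region 1.6 kb upstream and 12.3 at the Fos promoter (0 in the others). Animal 7 had 1.16 at the Fosb region 10.1 kb upstream (0).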

How the results depend on the processing

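The share of all features called under the same setting is given in parentheses after each count of members, or in a sentence beside it. The count of members that lost peaks, 1 in each LPS comparison, was 0 in both with distal peaks only (3.46% of all genes in LPSx1 and 3.35% in LPSx2; 1 member, Jun, rose, with 14.3% and 14.9%), lists as deposited (0% in both), no lane term (0.317% and 0.503%), no library left out (0.724% and 0.362%), the stronger 50% of each list (1.15% and 1.62%) or no duplicated lists (0.462% and 0.563%). It was 2 in both with lists limited within an animal and the animal as a replicate block (1.51% and 2.53%), 3 in both with peaks not collapsed (3.59% and 7.46%), and 2 for LPSx1 with another draw of tied scores (2.44%). Member regions that fell in LPSx1 (14) numbered 1 with lists as deposited (0.21% of all regions), 6 with no lane term (2.44%), 7 with the stronger 50% (8.2%) and 5 without duplicated lists (2.17%). Those that fell in LPSx2 (11) numbered 4 (0.37%), 4 (2.76%), 4 (8.53%) and 3 (1.45%) under the same settings. The 1 that rose in LPSx1 became 0 with no lane term (2.73%), no minimum number of libraries (3.27%), the stronger 50% (7.02%) or no duplicated lists (3.23%), and 3 with peaks not collapsed (10.7%). The 3 that rose in LPSx2 became 0 with no lane term (3.1%) or no duplicated lists (2.23%), and 1 with the stronger 50% (7.87%). The 1 lower in BTBR became 0 with lists as deposited (0.0258%), no lane term (0.255%) or the stronger 50% (2.4%). With no duplicated lists, 0 were lower (2.48%), but that region then had a peak in too few libraries to be tested. The cause was not tested.

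Leaving out 1 animal at a time gave 0 (without animal 5) to 3 (without animal 2) members that fell in LPSx1 and 1 to 2 (without animal 2) in LPSx2. Over all genes, 0.804% (without animal 5) to 2.03% (without animal 2) fell in LPSx1, and 0.988% to 3.2% in LPSx2. Regions numbered 11 to 14 that fell and 0 (without animal 1, 2, 3 or 4) to 2 (without 7 or 8) that rose in LPSx1, and 7 (without 4 or 7) to 12 that fell and 1 (without 2, 3 or 4) to 4 that rose in LPSx2. Over all regions, 5.73% to 9.07% fell and 6.32% to 8.64% rose in LPSx1 in these fits. The LPSx2 shares were 6.16% to 11.8% and 6.7% to 10.2%. In BTBR, 0 (without 2 or 3) to 1 were lower and 0 to 3 (without 7, and 2 without 8) higher. Over all regions 1.68% to 4.06% were lower and 0.766% to 3.33% higher.

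With the animal as a replicate block the counts were 1 and 1 for genes, 14 fell and 1 rose for LPSx1 regions, and 11 and 3 for LPSx2. Over all genes 1.38% fell in LPSx1 and 2.85% in LPSx2 in these fits. Over all regions 7.68% fell and 7.73% rose in LPSx1, and 10.9% and 9.8% in LPSx2. Of the calls named, the block ended that of the Jund region 1.8 kb downstream in LPSx1 (adjusted p = 0.084).

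Differences that did not pass changed sign as follows, for LPSx1 unless stated. With lists as deposited they were 2.44 (LPSx2 3.54) for Fos, 3.35 (LPSx2 4.38) for Fosl2, 1.60 for Batf3 and 3.81 (LPSx2 1.38) for Atf3. With peaks not collapsed they were 0.125 (LPSx2 0.208) for Fosl2, 0.198 for Batf3 and, in LPSx2, 0.25 for Atf3. With peaks within 25 kb they were -0.667 (LPSx2 -0.875) for Jun and 0.135 for Batf3. Fosl2 was 0.0104 with distal peaks only, Batf -0.314 without duplicated lists, Batf3 -0.333 to 0.0245 over the fits that leave out 1 animal (0.0245 without animal 3), and Atf3 0.125 with no library left out and 0.115 (LPSx2 0.375) with the stronger 50%.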
